A study of Mus musculus with 8 samples.

Results

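The genes described here encode the proteins of the cytosolic ribosome, the particle that translates messenger RNA. Members were every locus with a unique gene name made of Rpl or Rps and a number (with the usual a, x or y suffix), or named Rpsa or Rplp with a number, after kinases of the Rps6k family and names marked as pseudogenes were dropped. Of the 13690, 13825 and 13910 loci tested at 1, 8 and 24 h, 73 were members at each time, 31 of the small and 42 of the large subunit. The name pattern matched 75 loci and 74 names. Rpl5 stood at 2 loci and was left out by the rule, while Rpl13a and Rplp0 shared merged loci with neighbouring genes. All 73 members had an FPKM (fragments per kilobase of transcript, scaled to library size) of at least 1 in 1 of the conditions compared, so no member was lost to the filter on low values.

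The samples were mouse retinal organoids at day 6 of differentiation, grown from Rx:GFP cells in which the sequence for an FKBP12F36V-HA tag had been inserted at the C-terminal end of both endogenous Mettl3 alleles. METTL3 is the catalytic subunit of the complex that writes m6A on messenger RNA, and the tag makes the protein degradable on addition of the small molecule dTAG-13. Polyadenylated RNA was sequenced from 8 samples, 2 each at 0, 1, 8 and 24 h of dTAG-13 at 125 nM. The study asks what follows acute loss of the enzyme. Every group, the 0 h group included, carries the tagged alleles. The labels give the 0 h group no compound and do not say whether it received solvent, and they name no line without the tag that received dTAG-13, so an effect of the compound itself cannot be told apart from loss of METTL3. The labels do not say whether the replicates came from separate cultures.

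Ribosomal proteins assemble with ribosomal RNA in the nucleolus and cytoplasm, mostly in a single copy per particle, and their messages are among the most abundant in growing cells. Many of these messages begin with a C followed by a run of pyrimidines at the cap, the 5′ terminal oligopyrimidine (TOP) motif, through which translation is controlled by the mTOR pathway and LARP1. Retinal progenitors proliferate and make many ribosomes, and loss of single ribosomal protein genes affects eye and pigment tissue in mouse mutants such as the Rpl24 strain Belly spot and tail.

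Start-site sequences are shown for members that lay at the ends of the range of ratios, first for 5 with a run of at least 8 pyrimidines near the start. Each line gives the 30 bases before and 20 bases after the RefSeq transcript start (build GRCm38.p6), 5′ to 3′ on the strand of the gene, with the longest run of C and T that touches the 10 bases on either side of the start in capitals. Rpl7a and Rpl28 had the lowest FPKM ratios at 8 and 24 h. Rps15a had the highest ratio at 1 h, and Rplp2 and Rps27 were among the highest at 8 h.
Rpl7a (chr2:26910777-26910826, plus strand): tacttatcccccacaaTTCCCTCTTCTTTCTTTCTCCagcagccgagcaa
Rpl28 (chr7:4792935-4792984, plus strand): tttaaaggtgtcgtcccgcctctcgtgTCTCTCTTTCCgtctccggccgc
Rps15a (chr7:118116128-118116177, minus strand): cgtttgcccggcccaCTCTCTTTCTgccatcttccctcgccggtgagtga
Rplp2 (chr7:141447621-141447670, plus strand): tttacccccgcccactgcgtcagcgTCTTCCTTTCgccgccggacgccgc
Rps27 (chr3:90213629-90213678, minus strand): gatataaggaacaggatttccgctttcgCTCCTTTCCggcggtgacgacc
The next 3 had shorter runs. Rpl24 was among the lowest at 8 and 24 h, Rps28 among the highest at 1 and 8 h, and Rpl41 among the highest at 24 h.
Rpl24 (chr16:55966245-55966294, plus strand): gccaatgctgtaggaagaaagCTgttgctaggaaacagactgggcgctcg
Rps28 (chr17:33824543-33824592, minus strand): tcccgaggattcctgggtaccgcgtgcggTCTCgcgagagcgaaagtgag
Rpl41 (chr10:128549149-128549198, minus strand): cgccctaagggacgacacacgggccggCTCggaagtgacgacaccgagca
Among the members shown, which were picked from the ends of the range, long and short runs stood at both ends. A run near the start need not begin at the cap. That of Rps15a, of 10 bases, begins 15 bases before the RefSeq start and ends upstream of it.

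Promoters were found in the RefSeq table for 53 of the 73 members and for 16446 other protein-coding genes. A pyrimidine run of at least 8 bases touched the start region in 23 of the 53 members (43.4%) and in 13.3% of all promoters. At 10 bases or more the shares were 35.8% and 6.69%. The longest run, 21 bases, was that of Rpl7a. The 23 members with runs of 8 or more had median log2 FPKM ratios of 0.17, 0.00 and -0.06 at 1, 8 and 24 h, and the 30 with shorter runs had 0.13, 0.01 and -0.03. The ranges of these 2 sets overlapped at each time, from -0.36 to 0.27 against -0.26 to 0.29 at 24 h. In the 300 bases around the start, searched on both strands, the core of ETS-family sites (CCGGAAG) was present in 43.4% of members and 12.4% of all promoters. The GC box (GGGCGG) was present in 58.5% and 48.5%. The core of YY1 sites (AAGATGG) was present in 13.2% and 6.42%, and the TATA box (TATAAA) in 7.55% and 12.9%. None of these motifs contains another, and a match describes letters only.

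The deposited estimated counts summed to between 31361518 and 32562075 per condition, and the number of raw reads is not given in the sources used here. The 8 eye field and retinal progenitor genes listed, among them Lhx2, Pax6, Otx2 and Rax, were all measured at 8 and 24 h, with summed FPKM of 633 at 0 h and 838 at 24 h. A locus was called when its 2 FPKM values, with 0.1 added to each, differed 1.5-fold or more and their intervals in the tables were apart. Rax rose from 49.9 to 78.6 FPKM and Lhx2 from 143 to 231 at 24 h, the only 2 of these 8 that were called at any time. Over all loci, 3.83% were called higher and 1.65% lower at 24 h. Of the 8 genes, 7 had a log2 ratio above 0 at 24 h and 1 was lower, at -0.30. Pluripotency genes summed to 299 FPKM at 0 h and 191 at 24 h, where Dppa5a (log2 ratio -0.88) and Tdgf1 (-1.05) were called lower. Of the 5 pluripotency genes tested, 4 were below 0 at 24 h and 1 was above, at 0.18. None of 4 neuron markers passed the filter at any time, the only mesoderm marker of 3 to do so was Tbx6 at 1.06 FPKM at 24 h, and the endoderm markers tested stayed at or under 2.10 FPKM. Whether these marker changes bear on the ribosomal protein genes was not tested. In bulk RNA, fewer cells of a type and less RNA per cell cannot be told apart, and FPKM, being relative to the library, cannot show a change in total RNA per cell. Mettl3 RNA, which is not the target of the degron, was 19.4 FPKM before dTAG-13 (interval 10.7 to 28.1), and its 8 h value was also 19.4 (10.8 to 28.0). By 24 h it was 17.0 (8.50 to 25.5). It was not called at any time.

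At 0 h the members were among the most abundant messages in these organoids. Their median was 1251 FPKM in the 8 h table, against 12.6 over all tested loci, and 72 of 73 lay above the 95th percentile of tested loci. They made up 46 of the 106 loci above 1000 FPKM and 35 of the 50 named protein-coding genes with the highest levels. Summed, they held 4.25% of the estimated counts over tested loci.

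The order of levels was led by Rps14, a small subunit protein near the mRNA exit, at 4109 FPKM (interval 3235 to 4982). Rplp1, an acidic protein of the stalk that recruits elongation factors, followed at 3308 (2691 to 3925), then Rps24 at 3215 (2574 to 3857), Rpl41 at 2821 (2284 to 3359) and Rps15, a protein of the small subunit head, at 2665 (2167 to 3162). The interval of Rps14 did not overlap that of Rps15, and no neighbours in this order differed beyond their intervals. At the other end, Rpl29 was at 17.3 FPKM (12.8 to 21.8), the 59.3rd percentile of tested loci, and its interval lay far below that of every other member. Above it stood Rpl34 at 202 (157 to 247), Rpl15 at 240 (180 to 300), Rps3a1 at 262 (212 to 311) and Rpl30 at 336 (255 to 417), again with overlapping neighbours. Near-identical pseudogene copies in the genome number 26 for Rpl29, 5 for Rpl34, 12 for Rpl15, 6 for Rps3a1 and 12 for Rpl30. Rps14, Rplp1, Rps24, Rpl41 and Rps15 have 2 to 7, while Rpl7a has 30 at 1591 FPKM. Whether copies bear on these levels was not tested, and how reads shared with such copies were assigned is not given in the sources used here.

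**Figure D1:**
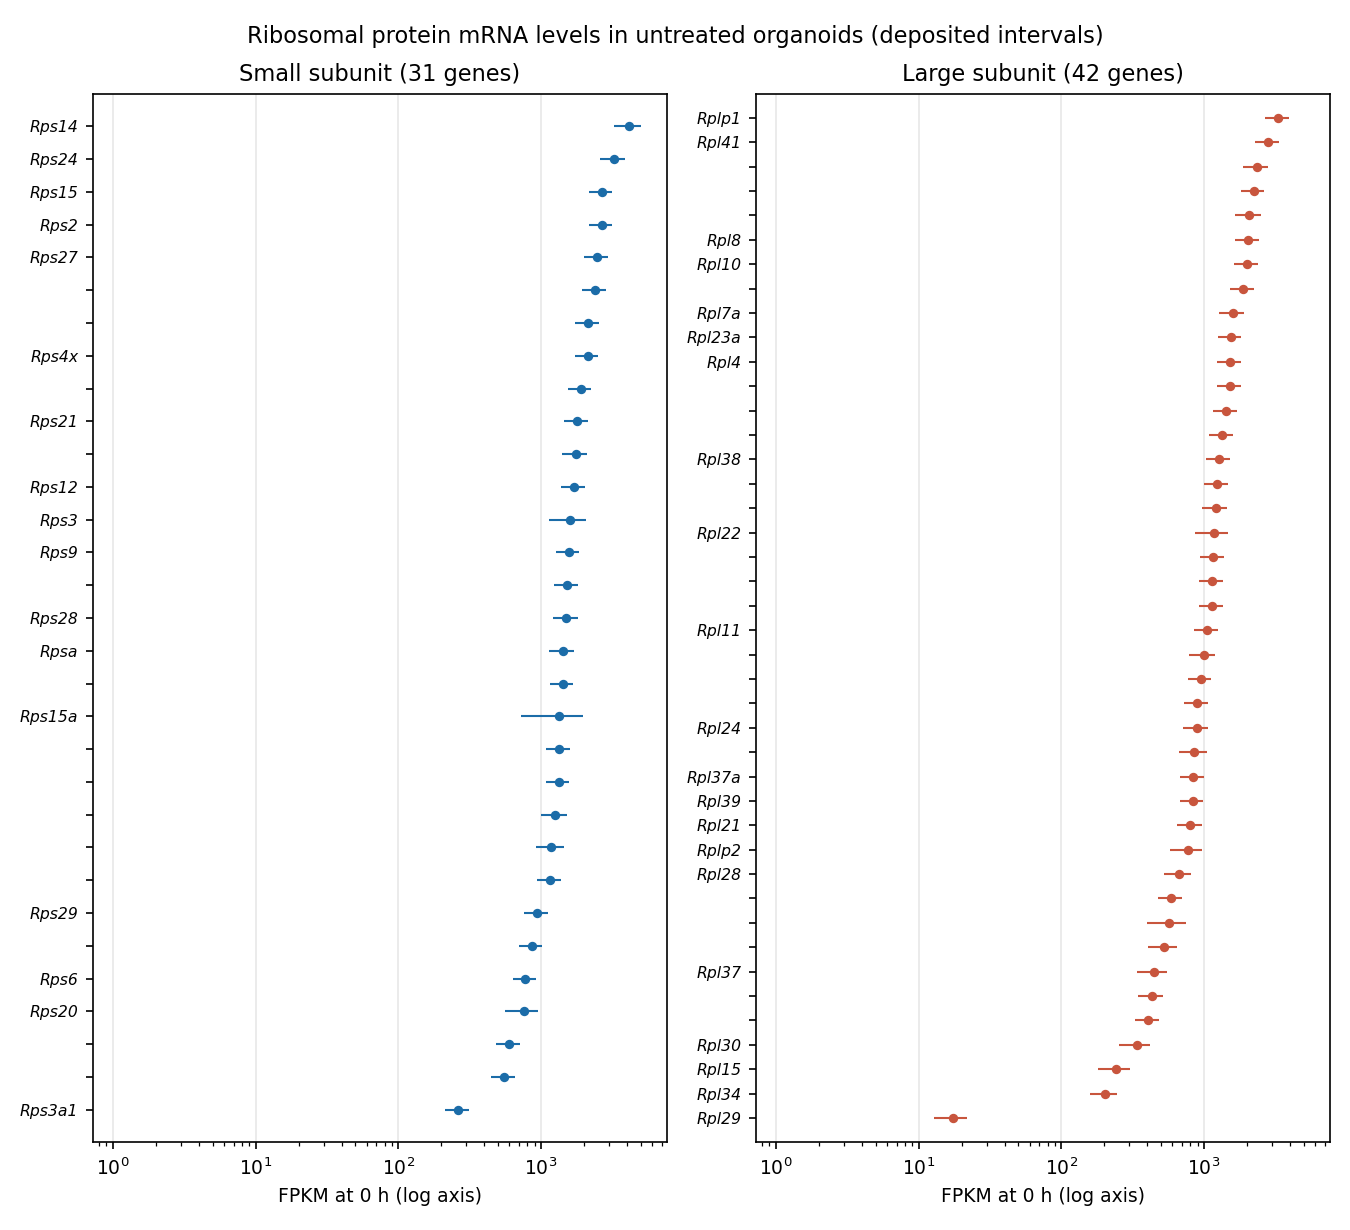
FPKM at 0 h (log axis) of the 31 small and 42 large subunit genes in the table that compares 0 h with 8 h, with points at the deposited value and bars at its lower and upper bound, in order of level. Only genes named in the text are labelled. Rpl29 stands alone at 17.3 FPKM, and 46 genes lie above 1000.

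The 0 h level of a gene was not identical in the 3 tables, although it comes from the same libraries. The median ratio of the highest to the lowest 0 h value of a member was 1.02, and 5 members differed by more than 5%, among them Rpl34, Rps20 and Rps27. Rps20 had 966 FPKM beside the 1 h column but only 756 beside the 8 h column. Each time was therefore compared only with the 0 h column of its own table.

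No ribosomal protein gene was called at 1, 8 or 24 h. Over all tested loci the same rule called 0.402%, 4.43% and 5.48% at these times (0.285%, 0.94% and 1.65% lower, 0.117%, 3.49% and 3.83% higher), and even without the fold threshold no member had intervals that failed to overlap (0.402%, 4.56% and 5.51% of all loci). The members' ratios to 0 h spanned 1.00 to 1.40-fold at 1 h, 0.845 to 1.16-fold at 8 h and 0.781 to 1.23-fold at 24 h. The deposited interval set what could be seen. Its half-width at 0 h was a median of 20.9%, 19.2% and 19.5% of the member's FPKM in the 1, 8 and 24 h tables, so that an increase had to reach a median of 1.53, 1.48 and 1.49-fold before intervals separated. The smallest such fold over the members was 1.51, 1.46 and 1.47. Shifts below that were not detectable gene by gene. The files hold 1 value per gene and condition, with both replicates combined by the authors, so no SD or test across replicates is given, and the level of the interval is not stated.

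At 1 h every member had a ratio above 1. The median log2 FPKM ratio of the 73 was 0.13, with quartiles of 0.09 and 0.19, beside 0.01 over all tested loci, of which 51.6% were above 0. The estimated counts gave a median of 0.17 and also put all 73 above 0. The members' share of the counts over all tested loci was 4.24% at 0 h and 4.63% at 1 h, a ratio of 1.09. The subunits had similar medians, of 0.11 for the small and 0.13 for the large. Because all 73 values come from the same pair of columns, they share 1 normalization and are not separate observations of the treatment. Summed FPKM over all tested loci was also 1.058 times its 0 h value in this table, and the members' sum was 1.096 times.

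The highest member at 1 h was Rps15a, a small subunit protein, at 1323 FPKM (591 to 2054) at 0 h and 1848 (776 to 2921) at 1 h, a log2 ratio of 0.48. Its intervals were the widest of all members, with a half-width of 55.3% at 0 h, and its estimated counts gave 0.27. Rps3, which lines the mRNA entry channel, went from 1584 (1063 to 2104) to 1982 (1192 to 2772), 0.32 by FPKM and 0.18 by counts. Rpl30, a small RNA-binding protein of the large subunit, had 329 (244 to 414) and 407 (305 to 508), a log2 ratio of 0.31. Next came Rps28 at 0.28 (1481 to 1800 FPKM) and Rpl39, which lines the tunnel through which new peptides leave, at 0.26 (819 to 981 FPKM). In all 5 the 0 h and 1 h intervals overlapped widely. Among the lowest log2 ratios were those of Rpl29 (0.02), Rps2 (0.04), Rps9 (0.04) and Rpl23a (0.05), the last a docking point for chaperones at the tunnel exit.

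At 8 h the members lay around their 0 h levels. The median log2 ratio was 0.01, as it was over all tested loci, and 38 of the 73 were above 0 (51.3% of all loci). Summed FPKM was 1.01 times the 0 h sum and the share of counts over tested loci 4.25% at both times. The small subunit had a median of 0.03 and the large subunit -0.01. Rplp2, the partner of Rplp1 in the stalk, was highest, with 771 FPKM (579 to 964) at 0 h and 893 (673 to 1113) at 8 h, a log2 ratio of 0.21. Rps15a followed at 0.18, and Rps27, Rpl39 and Rps28 each had 0.17. By estimated counts Rplp2 had 0.14 and Rps15a 0.10, and Rps27 was highest at 0.19. Rps27, a zinc-binding protein of the small subunit, was at 2462 FPKM (1985 to 2938) and 2774 (2241 to 3307). Rpl7a, a large subunit protein whose gene hosts box C/D snoRNAs, was lowest, at 1591 FPKM (1275 to 1907) and 1344 (1076 to 1612), a log2 ratio of -0.24. Rpl28 had -0.15, Rpl24 -0.13, Rpl11 -0.11 and Rps6, the substrate of the S6 kinases, -0.10. These intervals all overlapped.

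At 24 h the members were more spread. Their log2 ratios ran from -0.36 to 0.30 with an SD over genes of 0.14, against 0.08 at 1 h and 0.09 at 8 h. This widening was not particular to the family. Quartiles over all tested loci spread too, from -0.11 to 0.12 (1 h), -0.20 to 0.27 (8 h), then -0.22 to 0.30 (24 h). Those of the members, -0.13 to 0.05 (24 h), lay closer together. The median was -0.05, where all tested loci had 0.02, and 27 of 73 were above 0 (52.1% of all loci). The median was -0.05 in the small and -0.06 in the large subunit, with 15 of 31 and 12 of 42 above 0. The members' share of counts was 4.30% at 0 h and 4.15% at 24 h. At least 1.1-fold lower levels were seen for 17 members and at least 1.1-fold higher levels for 7, against 2 and 7 at 8 h, and 0 and 33 at 1 h. The share of all tested loci beyond 1.1-fold was not counted. Their quartiles lay beyond 1.1-fold both ways at 8 and 24 h, so shifts of this size were common then, and within it at 1 h.

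Rpl7a was again lowest at 24 h, with 1597 FPKM (1275 to 1918) at 0 h and 1247 (992 to 1501), a log2 ratio of -0.36. Rpl28, a large subunit protein without a counterpart in budding yeast, had 673 (527 to 819) and 530 (415 to 645), a log2 ratio of -0.34. Rpl24, which forms a bridge to the small subunit, had 889 (716 to 1063) and 743 (598 to 889), or -0.26. Rpl10, a late-joining protein near the peptidyl transferase centre, had 1997 (1613 to 2381) and 1705 (1379 to 2031), or -0.23. Rpl11, which with Rpl5 and 5S RNA can bind the p53 regulator MDM2, had 1057 (852 to 1262) and 915 (738 to 1092), or -0.21. The 5 lowest were thus all large subunit genes, and 4 of them (Rpl7a, Rpl28, Rpl24 and Rpl11) were also among the 5 lowest at 8 h, a comparison that rests on the same 0 h libraries.

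Of the 5 highest members at 24 h, Rps15a has 390 coding bases and the other 4 have fewer than 300. Rps29, a zinc-binding small subunit protein, had 937 FPKM (755 to 1119) at 0 h and 1155 (933 to 1378) at 24 h, a log2 ratio of 0.30. Rpl41, the shortest ribosomal protein, had 2831 (2283 to 3379) and 3464 (2793 to 4135), or 0.29. Rps15a had 1349 (724 to 1973) and 1628 (904 to 2353), or 0.27 by FPKM but 0.08 by counts. Rps21 had 1796 (1452 to 2139) and 2105 (1700 to 2511), or 0.23, and Rpl39 had 834 (675 to 993) and 975 (790 to 1160), also 0.23. All these pairs of intervals overlapped.

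**Figure D2:**
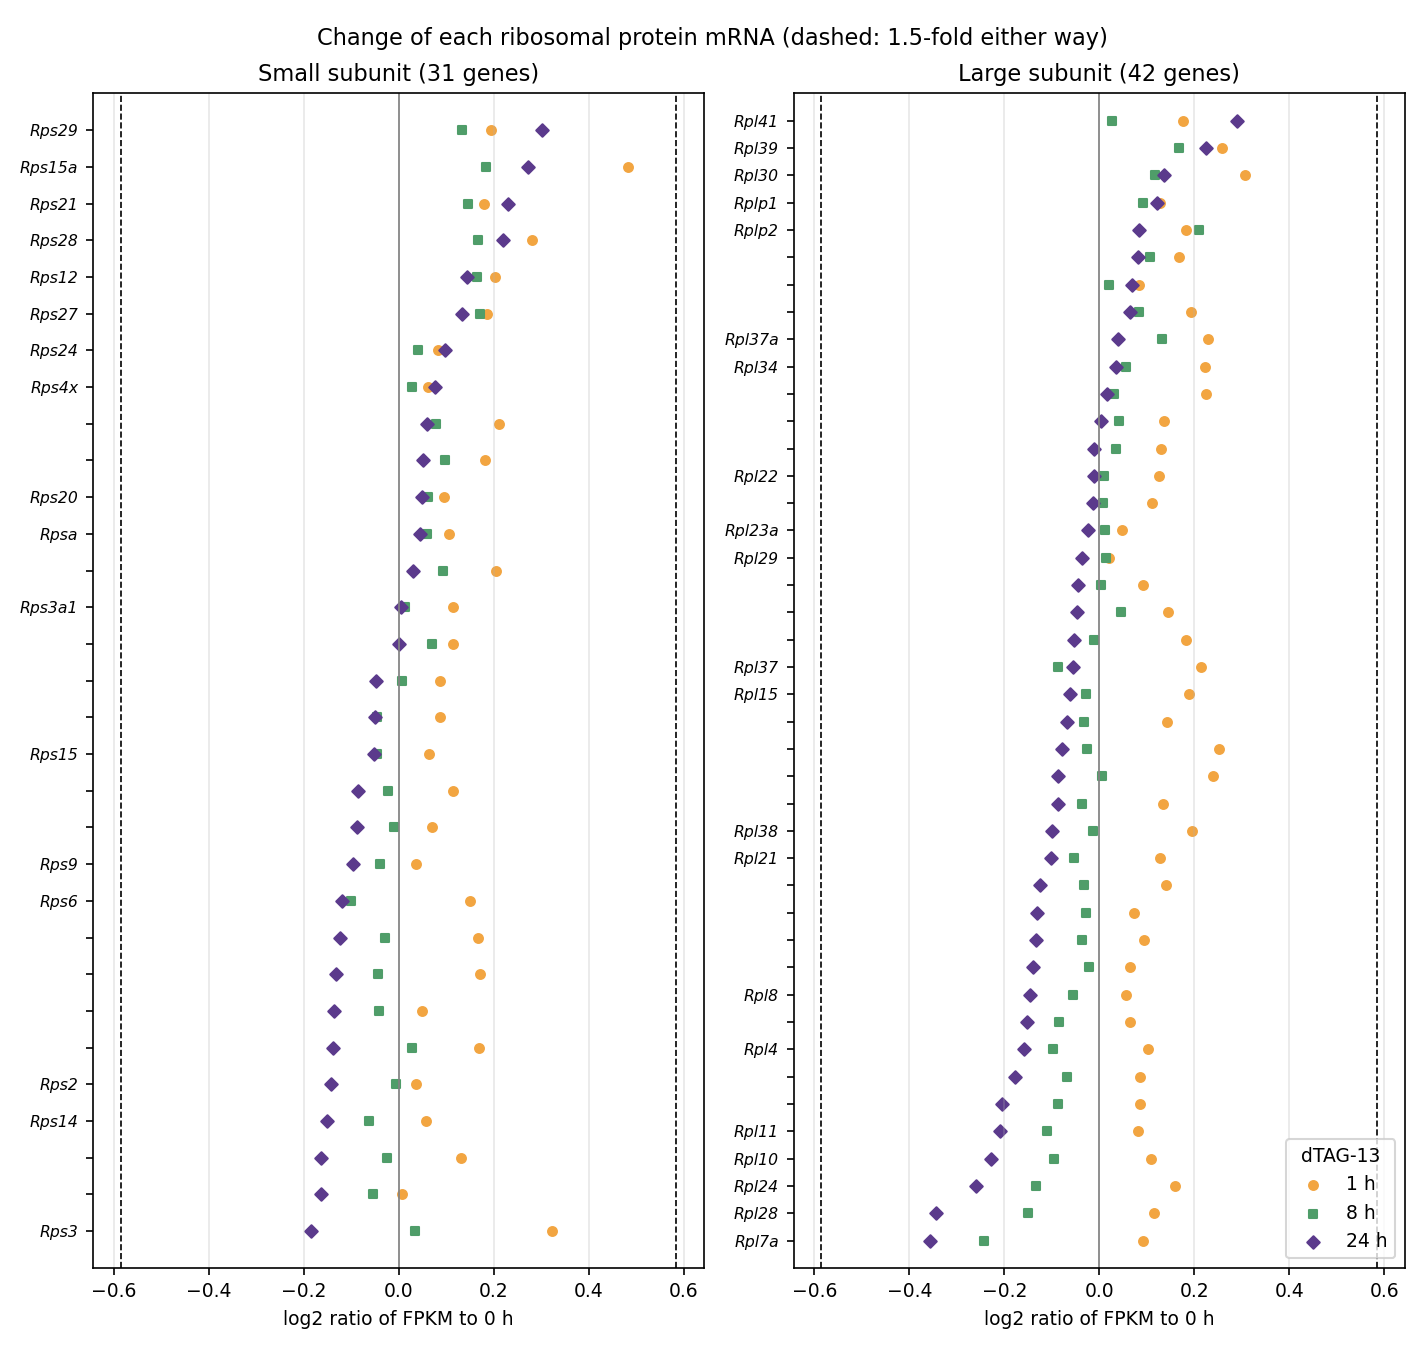
log2 ratio of FPKM to 0 h (horizontal axis) for each of the 73 genes at 1, 8 and 24 h of dTAG-13, in the order of their 24 h ratio, with dashed lines at 1.5-fold and labels for genes named in the text. No point lies beyond the dashed lines, all 1 h points are right of 0, and the 24 h points run from -0.36 (Rpl7a) to 0.30 (Rps29).

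Over the 3 times, 27 members stayed above their 0 h value throughout and 46 were above it at 1 h and below it at 24 h. As all 73 were above it at 1 h, the 46 are simply the members below it at 24 h. The 3 times share the 0 h libraries. From the deposited variances, the median SD of a member's log2 ratio was 0.21, 0.19 and 0.19 at 1, 8 and 24 h, so many of these signs are uncertain. Below 0 h at both 8 and 24 h were 35 members. The sign of the ratio was the same in FPKM and in estimated counts for all members at 1 h, for all but 4 at 8 h and for all but 8 at 24 h. With ratios centred on the median of all tested loci, 73 members were above 0 at 1 h, 34 at 8 h and 23 at 24 h. At 1 h this shift was 0.0063 on the log2 scale and the lowest member had 0.0071, so the count could not change. Summed FPKM over all tested loci, with a log2 ratio of 0.08 at 1 h, was not used for scaling.

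Within the family the ratio went with the length of the coding sequence. Across the 73 genes, Spearman's rho between coding length and log2 FPKM ratio was -0.56, -0.53 and -0.60 at 1, 8 and 24 h, given as a description because the genes share libraries and normalization. With estimated counts it was -0.74, -0.63 and -0.58. In the small subunit alone it was -0.42, -0.54 and -0.56, and in the large subunit -0.67, -0.56 and -0.65. Without the 9 genes under 300 coding bases it was -0.43, -0.47 and -0.51. Over the whole transcript, UTRs included, rho was weaker, at -0.16, -0.19 and -0.21. All times are compared with the same 0 h libraries, so similar values of rho are not separate observations of the relation.

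The 9 genes under 300 bases were Rpl41, Rpl39, Rps29, Rps28, Rpl38, Rps21, Rps27, Rpl37a and Rpl37. Their median log2 ratios at the 3 times were 0.19, 0.13 and 0.22. The 46 genes from 300 to under 600 bases had 0.13, 0.01 and -0.05, and the 18 of 600 bases or more 0.09, -0.03 and -0.14. These medians rest on the same 0 h libraries at every time, so the order of the classes is not observed separately at each. Of the 9 shortest, 7 were above 0 at both 8 and 24 h. The exceptions were Rpl38 and Rpl37, and by estimated counts all 9 were above 0 at 8 h, with 0.02 for each of these. Rpl38, known for its part in translating Hox messages, had -0.01 at 8 h and -0.10 at 24 h (1283 to 1199 FPKM), and Rpl37 had -0.09 and -0.06. Of the 18 longest, 5 were above 0 at 8 h and 3 at 24 h. Rps4x, the X-linked small subunit gene of 789 coding bases, stood out among these with 0.08 at 24 h (2129 to 2246 FPKM). The longest, Rpl4, had 0.10, -0.10 and -0.16 at the 3 times. Other protein-coding genes under 300 coding bases (223) had medians of 0.11, -0.02 and 0.08, and those of 600 or more -0.01, 0.02 and 0.02. Over all other genes rho with coding length was -0.25, 0.10 and 0.04, and over the mitochondrial ribosomal proteins -0.23, -0.26 and -0.29. Fragment length and RNA integrity were not available for these libraries, and their part in this relation was not tested.

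**Figure D3:**
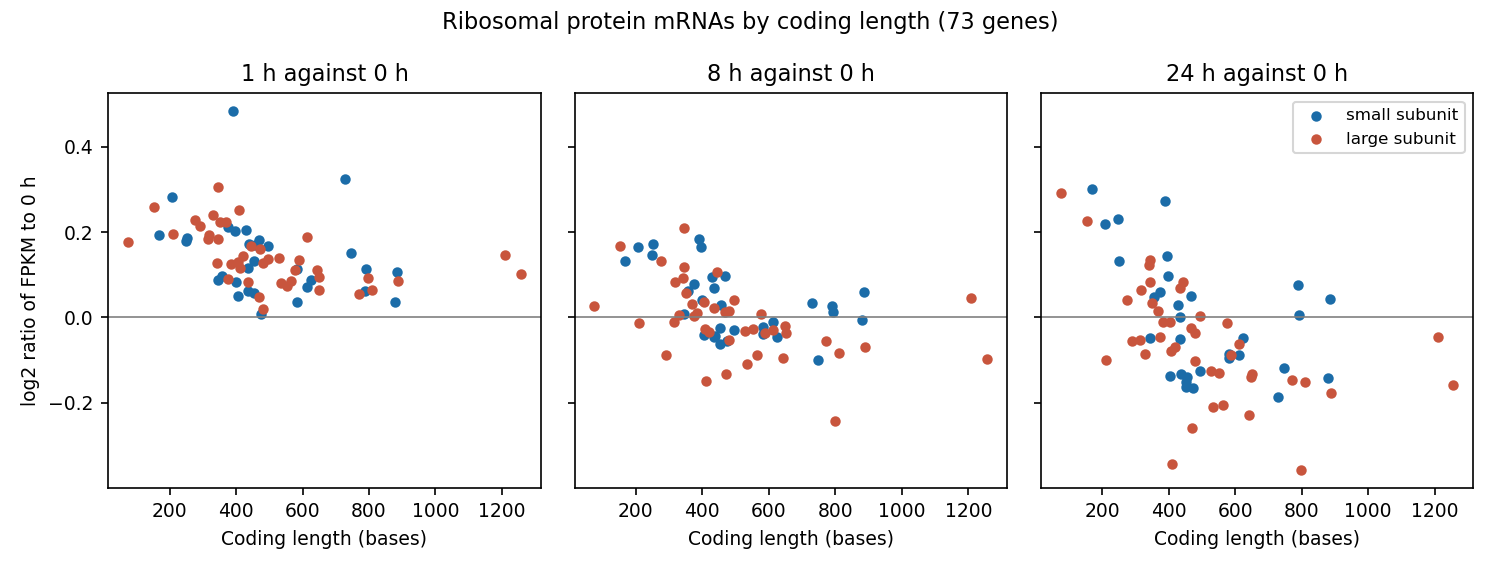
log2 ratio of FPKM to 0 h (vertical axis) against coding length in bases (horizontal axis) for the 73 genes at 1, 8 and 24 h, coloured by subunit. The shortest genes lie among the highest, most clearly at 24 h, where the 9 genes under 300 bases have a median of 0.22 and the 18 of 600 or more have -0.14. The times share the 0 h libraries and are not separate observations.

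The members have more exon junctions for their length than most genes, a feature known to keep m6A low because junction complexes shield nearby sequence. Their median was 8.40 junctions per kilobase of coding sequence, and 82.3% of 10882 other tested protein-coding genes had fewer. The median member has 5 exons and 453 coding bases, against 9 exons and 1395 coding bases in other genes. Other genes with at least 8.40 junctions per kilobase had median log2 ratios of 0.03, -0.13 and -0.12 at 1, 8 and 24 h, and those below it -0.01, 0.06 and 0.05. Members at or above the same bound had 0.17, 0.03 and -0.01, and members below it 0.11, -0.02 and -0.07. Spearman's rho with junction density was 0.09, -0.47 and -0.40 over other genes at these times, and 0.38, 0.26 and 0.25 within the ribosomal protein genes. The sign was thus the same at 1 h and opposite at 8 and 24 h. These values are descriptions, and within the family junction density is tied to coding length.

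Ribosomal protein genes are prolific sources of processed pseudogenes. In GENCODE M21, 526 annotated pseudogene transcripts matched the coding sequence of 69 members at 95% identity or more over at least 90% of its length. Rpl21 had 55, Rpl7a 30, Rpl29 26, Rps2 22 and Rps12 21, while 4 members had none, Rpl8, Rplp2 and Rps3 among them. Only 8 of these copies were named loci in the tables, and at 0 h they held more than 1% of the counts of gene and copies together for 3 members, led by Rpl11 with 4.28% in the pair with 8 h. Reads shared with copies could have been split or dropped upstream, so levels of genes with many copies are uncertain. The 4 members without a copy had medians of 0.13, 0.01 and -0.12 and the 69 with copies 0.13, 0.01 and -0.05. For 12 members the locus overlapped another tested locus, for example Rpl15 with Nkiras1 and Ube2e1, and Rpl28 with Ube2s at 87.0 FPKM. The spans of 27 members hold annotated snoRNA genes on the same strand, 50 in all, with 5 in Rpl4. These 27 had median ratios of 0.13, -0.01 and -0.06, and the other 46 had 0.13, 0.01 and -0.05.

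Genes left out by the naming rule gave similar values. Rpl5, at the larger of its 2 loci, had 625 FPKM (493 to 758) at 0 h beside 671 (528 to 813) at 1 h. The 8 h pair was 591 (462 to 721) and 581 (452 to 709), and the 24 h pair 593 (462 to 725) and 578 (447 to 709). The merged locus of Rplp0 had log2 ratios of 0.11, 0.01 and -0.0044 at the 3 times, and that of Rpl13a 0.28, 0.05 and -0.10. Fau, which encodes Rps30 fused to a ubiquitin-like protein, had 0.18, -0.01 and -0.14. Rack1, a signalling scaffold on the small subunit, had 0.03, -0.09 and -0.23, from 1300 to 1111 FPKM at 24 h. None was called.

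Paralogs of ribosomal proteins had uneven values, with 6 of 10 listed genes above the filter and none called. Rps27l, a p53-responsive relative of Rps27, had 504 FPKM (407 to 600) before treatment and 379 (306 to 453) by 8 h. Its log2 ratios were -0.41 at 8 h and -0.34 at 24 h, where Rps27 itself had 0.17 and 0.13. Rpl22l1, the relative of Rpl22, had -0.03 at 8 h and -0.31 at 24 h (547 to 441 FPKM), beside 0.01 and -0.01 for Rpl22. Rpl7l1 had 106 FPKM at 0 h and 91.4 at 8 h, and Rps27rt, a retrogene of Rps27, had 61.7 and 81.9. At 1 h Rps27rt went from 60.6 (35.4 to 85.9) to 98.4 (53.7 to 143), with overlapping intervals. Rpl10l and Rpl39l stayed under 3 FPKM. The difference within each pair was not tested, since no replicate values were available.

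Mitochondrial ribosomal proteins build the separate ribosome of the organelle. Of 74 tested at 8 and 24 h, 4 were called higher at each time and none lower, beside 3.49% and 3.83% of all loci called higher, a count near that background. The same 4 genes were called at both times. Mrps2 had 35.6 FPKM (28.7 to 42.4) before treatment and rose to 86.8 (70.3 to 103) by 8 h. Its log2 ratios were 1.28 and 1.23. Mrpl43 had 1.11 and 1.31, Mrpl46 1.19 and 1.26, and Mrpl16 0.86 and 0.95. These 4 have 3 or 4 coding exons and 3.44 to 4.19 junctions per kilobase. At 1 h none was called, and the medians of the list were 0.07, 0.01 and 0.05 at the 3 times. Their log2 ratios ran from -0.62 to 1.28 at 8 h, where those of the cytosolic genes ran from -0.24 to 0.21. Within the mitochondrial set rho with junction density was -0.70 at 8 h and -0.65 at 24 h.

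Ribosome biogenesis factors, 40 genes for making and trimming ribosomal RNA, had medians of 0.12, -0.02 and -0.11. None was called at 1 h. Of the 40, the rule called 3 higher at 8 h and 2 higher at 24 h, where the share over all loci was 3.49% and 3.83%. At 8 h the 3 that rose (log2 ratios in brackets) were Polr1b, the second largest subunit of RNA polymerase I (0.84), Nop2, a ribosomal RNA methyltransferase (0.75), and Utp3, a processing factor (0.59). At 24 h Polr1d, a subunit shared by RNA polymerases I and III, rose by 0.67 on the log2 scale, and Nop2 was still higher at 0.61. Ncl (nucleolin) had 0.59 at 24 h (417 to 626 FPKM, intervals 320 to 513 and 483 to 769) and was not called. Npm1 (nucleophosmin) had -0.29 and Fbl (fibrillarin) -0.42 at 24 h, also not called.

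The list called translation factors holds genes that act in initiation or elongation or whose messages are known as TOP messages. It thus includes genes such as Vim, Hnrnpa1 and Nap1l1, which are not translation factors. Its medians were 0.09, -0.15 and -0.21 at the 3 times. Of 37 tested, 30 were above 0 at 1 h and 8 at 8 h, and 5 of 36 were above 0 at 24 h. Over all loci the shares above 0 were 51.6%, 51.3% and 52.1%. Only Eif3g, a subunit of the initiation factor eIF3, was called, at 24 h, where 1.65% of all loci were called lower. It had 176 FPKM (142 to 210) before treatment and fell to 114 (91.9 to 137) by 24 h, with a log2 ratio of -0.62. Eef1a1, the elongation factor that delivers aminoacyl-tRNA, was at 7823 FPKM at 0 h and 7820 at 8 h, and its 24 h estimate was left out because its status was not OK. All 3 lists and the ribosomal protein genes had their highest median at 1 h, a comparison that shares the 0 h libraries.

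**Figure D4:**
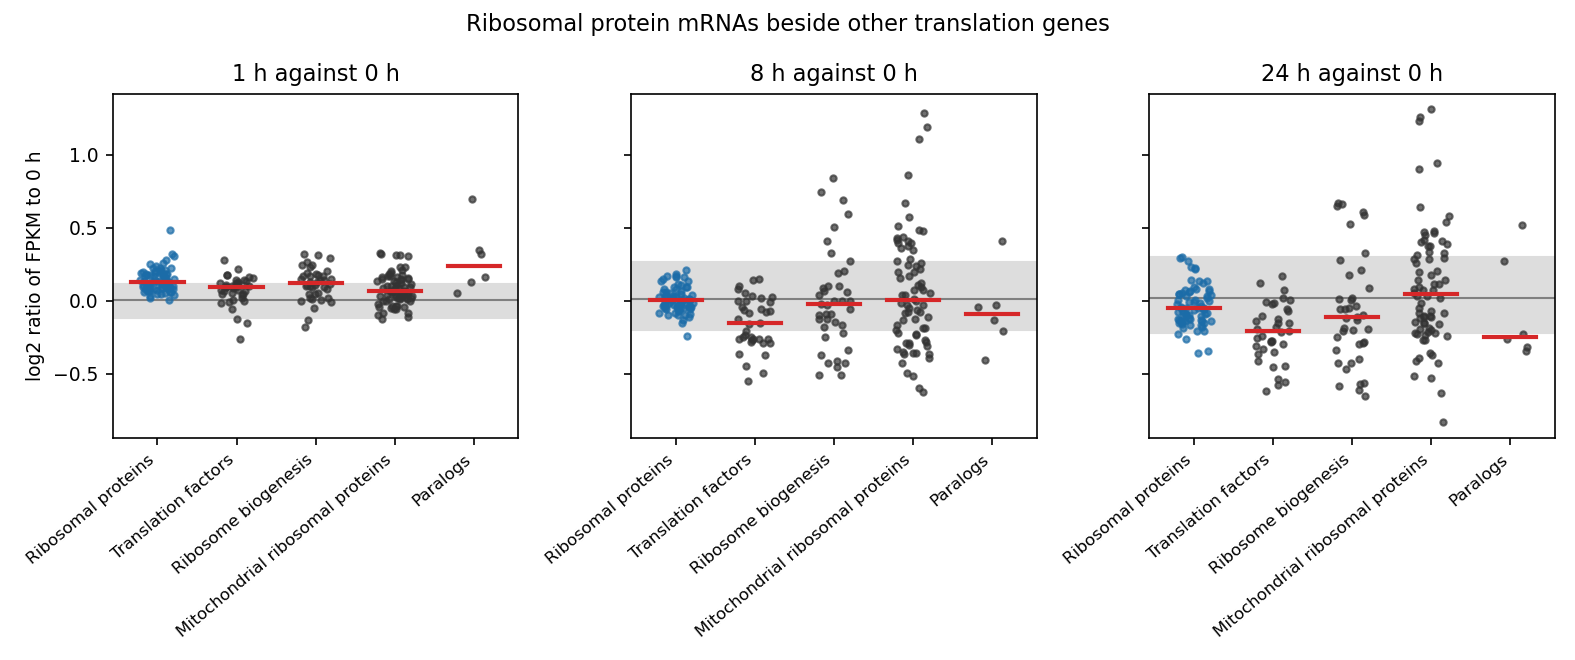
log2 ratio of FPKM to 0 h (vertical axis) for single genes (points) of 5 lists at 1, 8 and 24 h, with red lines at list medians and the grey line and band at the median and quartiles of all tested loci. The ribosomal protein genes lie between -0.36 and 0.48 over all times, and mitochondrial ribosomal proteins reach 1.31.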

How the data were processed

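Polyadenylated RNA from 8 samples in 4 groups was grouped by sample title. The authors deposited FPKM with lower and upper bounds (on the FPKM scale), and estimated counts with a variance, per the file headers, as 3 pairs of tables with 1 value per condition, replicates combined. The submitters' processing notes name Cufflinks 2.2.1, Cuffdiff and mm10, without roles. The aligner, strandedness and interval level are not given in the sources used here. Log2 ratios were formed within a table after adding 0.1 to both FPKM values, and folds of low genes are therefore understated. A locus was tested with FPKM of at least 1 in 1 condition and status OK in both, and called at 1.5-fold or more with intervals that did not overlap. Estimated counts were used unrounded, as ratios, with no count model, since columns are pooled. The call rule was tried on simulated data with 3-fold changes only, which cannot show how it performs near 1.5-fold. Gene structure came from GENCODE M21, pseudogene copies from blast 2.17.0, and promoters from RefSeq (GRCm38.p6), 1 per gene, nearest the GENCODE start. The YY1 motif was searched as its 7-letter core instead of the longer form planned. Named members are the 5 highest and 5 lowest ratios at each time and the 5 highest and 5 lowest 0 h levels, the widest interval, called genes of the other lists, Fau, Rack1, tested paralogs and Mettl3, and a few of these are not reported here. Rpl38, Rpl37, Rps4x, Rpl4 and the uncalled genes named in the other lists were chosen after their values were seen. The members and lists were chosen with earlier results of these data known. Calculations used python 3.11.15, pandas 2.3.3, numpy 2.4.6 and scipy 1.17.1. Alternatives changed the pseudocount (0.01 or 1), the filter (none or 5 FPKM), the unit (estimated counts), the centring, the membership and the fold threshold.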

Additional observations from a re-analysis of the deposited data

How the results depend on the processing

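No member was called at 1, 8 or 24 h under any alternative run, including a 2-fold threshold, intervals alone, and 1.5-fold without intervals. Several of these runs could not have called one. No member reached 1.5-fold, which fixed the outcome of the 2-fold threshold and of 1.5-fold without intervals. All members stood above the FPKM filters, so changing the filter could not matter either. Results that changed sign all lay next to 0 at 8 h. With estimated counts the members' summed ratio was 0.998 instead of 1.01, and the median of the large subunit 0.014 instead of -0.012. Centring on all tested loci gave a member median of -0.0032 instead of 0.0065, and a mitochondrial median of -0.0030 instead of 0.0067. Leaving out members whose loci overlap another, an alternative added after seeing the data, gave -0.0098. The number of members above 0 at 8 h, 38 of 73, was 34 when centred and 29 of 61 without overlapping loci, so this near-even split turned. Of the 217 other comparisons with an alternative, these included, medians and ratios kept their sign and counts stayed within 1.5 times. No paired analysis was possible because the columns combine the replicates, and no replicate could be left out for the same reason. The wide deposited intervals limit single genes to changes near 1.5-fold.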
